A study of Mus musculus with 9 samples.

Results

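miR-7a-5p (listed as mmu-miR-7a-5p) is one of the 817 mature mouse miRNAs counted by small RNA sequencing (sRNA-seq) of *Meis1/Hoxa9* preleukemic cells. It was picked by name, because nearly all of its reads carried a T past the annotated 3′ end, with its abundance and its end positions in these libraries already known. It accounted for 6046 reads over the 9 libraries, in 10 distinct read sequences. No read of miR-7a-5p was also listed under a second miRNA in the same library. None of its sequences was found within another mature reference, as rebuilt from the reads. In 149 of the rebuilt references some bases were not covered by any read, and a match there could not be seen.

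The cells were fetal liver cells enriched for c-Kit, transformed with retroviral *Meis1* and *Hoxa9* and grown with Stem Cell Factor, IL-6 and IL-3. Both groups were homozygous for floxed *Tut4* and *Tut7* alleles. The 4 cKO libraries came from cells with *Vav-iCre*, which recombines in hematopoietic cells, and the 5 CTL libraries (labelled WT) came from cells of littermates without it. By the study's general statement on replicates, those of this model came from separate animals or embryos, which the labels of the libraries do not restate. Total miRNA reads ranged from 209702 to 316620 in CTL and from 175462 to 479342 in cKO libraries. sRNA-seq gives no reading of *Tut4* or *Tut7* mRNA, and the genotype labels therefore had no direct check within these libraries. The study itself ran PCR for the *Tut4* and *Tut7* deletions on *Meis1/Hoxa9* cells of both genotypes.

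TUT4 and TUT7 are terminal uridylyl transferases, enzymes that add uridines to the 3′ ends of RNAs, among them mature miRNAs and their precursors. miR-7 is a deeply conserved miRNA, best known from neurons and from endocrine cells of the pancreas, and the study names it among miRNAs with reported links to lipid metabolism. A miRNA recognizes its targets mainly through its seed, bases 2 to 8 from the 5′ end. In these files a read counts as T-ending, which the study calls uridylated, when it ends in 1 to 3 Ts past the mature end. A T copied from the gene gives the same read as an added U.

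The mature sequences of the miR-7 family, from the RefSeq table built on GRCm38.p6, are shown because the length annotated for each member decides what is counted as a T ending. Capitals mark the seed.
miR-7a-5p: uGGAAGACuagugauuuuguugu
miR-7b-5p: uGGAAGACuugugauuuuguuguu
miR-7a-1-3p: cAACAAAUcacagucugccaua
miR-7a-2-3p: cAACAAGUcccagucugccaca

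The 2 members with the 5p seed, miR-7a-5p and miR-7b-5p, were the only ones to carry it among the 786 miRNAs whose mature sequence was known in full. The other 31 were compared too, but could match only where all seed bases had been read, and none did. RefSeq gives 23 bases for miR-7a-5p and 24 for miR-7b-5p, whose last base is a second terminal U. The reference used for the deposited counts ends both at base 23. Of the 707 miRNAs named in both sources, the deposited reference was shorter than RefSeq for 5 and equally long for 702.

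miR-7a-5p is encoded at 2 loci, and both genes were read in GRCm39 to see what follows the mature end. The mature sequence and the next 7 bases are shown on the strand of the gene, and capitals mark the Ts that directly follow the mature end.
*Mir7-1*: tggaagactagtgattttgttgtTTTTaga
*Mir7-2*: tggaagactagtgattttgttgtTgtgtct
*Mir7b*: tggaagacttgtgattttgttgtTctgata

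In *Mir7-1*, miR-7a-5p spans chr13:58540655-58540677 on the minus strand, within an intron of the protein-coding gene *Hnrnpk*. In *Mir7-2* it spans chr7:78538043-78538065 on the plus strand, within an intron of the lncRNA gene *Gm57212*. miR-7b-5p lies at chr17:56550017-56550039 on the plus strand and overlaps no other annotated gene. At *Mir7-1* the mature end is followed by 4 Ts, and at *Mir7-2* by 1. A read with 1 T thus fits both loci of miR-7a-5p, whereas reads with 2 or 3 Ts fit the genome at *Mir7-1* only. Templated and added Ts cannot be told apart in any of these reads.

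The read forms of miR-7a-5p that start at the first base and end from 2 bases short of the mature end to 3 Ts past it are shown next, with the Ts past base 23 in capitals.
21 nt: tggaagactagtgattttgtt
22 nt: tggaagactagtgattttgttg
23 nt: tggaagactagtgattttgttgt
24 nt: tggaagactagtgattttgttgtT
25 nt: tggaagactagtgattttgttgtTT
26 nt: tggaagactagtgattttgttgtTTT

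The 24-nt form dominated in both genotypes. Counting every start, reads with exactly 1 T numbered 511, 695, 754, 798 and 1033 in CTL replicates 1 to 5, and 168, 543, 603 and 667 in cKO replicates 1 to 4. They made up 94.7% ± 0.956 (SD, n = 5) of miR-7a-5p reads in CTL and 97.5% ± 2.50 (SD, n = 4) in cKO libraries. The annotated 23-nt form held far fewer reads, namely 16, 31, 34, 39 and 29 in CTL and 1, 8, 7 and 38 in cKO libraries. Its share was 3.74% ± 0.844 in CTL and 2.13% ± 2.17 in cKO libraries, and the groups overlapped because cKO replicate 4, at 5.34%, was above every CTL library. Without that library the cKO share was 1.06% ± 0.433 (SD, n = 3).

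Ends short of base 23 were rare. The 22-nt end held 2, 3, 2, 2 and 2 reads in CTL replicates 1 to 5, and 0, 1, 1 and 2 in cKO replicates 1 to 4. The 21-nt end held 1, 8, 2, 2 and 1 reads in CTL replicates 1 to 5 and 0, 0, 0 and 3 in cKO replicates 1 to 4. A further 7 CTL reads and 0 cKO reads ended 3 or more bases short. All ends before base 23 together made up 0.821% ± 0.543 of reads in CTL and 0.262% ± 0.305 in cKO libraries, and the highest cKO library, at 0.703%, lay within the CTL range of 0.465 to 1.76%.

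**Figure D1:**
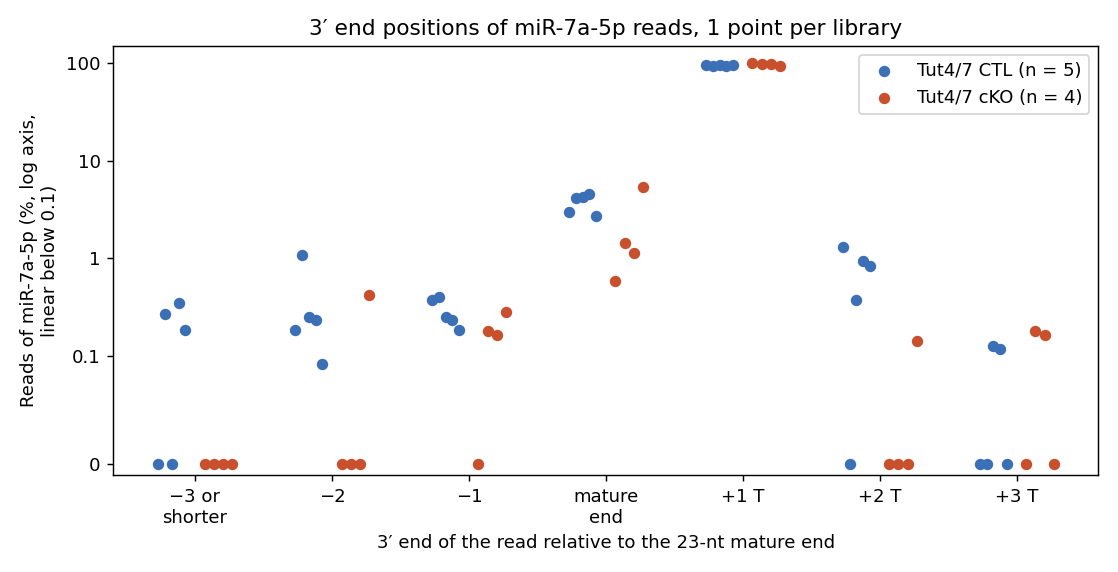
Share of miR-7a-5p reads (%, log axis that is linear below 0.1) ending at each position relative to the 23-nt mature end, 1 point per library, 5 CTL in blue and 4 cKO in orange. Every library has between 93.6 and 99.4% of its reads at 1 T past the mature end. The 2-T position holds reads in 4 of 5 CTL libraries and 1 of 4 cKO libraries.

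Reads with any T ending made up 96.5, 94.0, 95.2, 94.6 and 96.8% of miR-7a-5p reads in CTL replicates 1 to 5, and 99.4, 98.4, 98.7 and 94.0% in cKO replicates 1 to 4. The means were 95.4% ± 1.19 (SD, n = 5) and 97.6% ± 2.47 (SD, n = 4). Of the cKO libraries, 3 were above every CTL library and cKO replicate 4 was slightly below all of them. The exact 95% counting interval for cKO replicate 1, the library with the fewest reads at 169, began at 96.7%. Such intervals cover counting error within a library only, not the spread between libraries. The libraries were amplified by PCR and carry no molecular identifiers. Copies of a molecule can thus count as separate reads, and the intervals may be too narrow. Because the T ending is what the miRNA was picked for, its share is given as a description, without a test.

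The T-ending odds of miR-7a-5p were set beside those of other miRNAs. The odds of a T-ending read were fitted for 143 miRNAs, those that reached 10 reads in 5 or more libraries and had a T-ending read in 3 or more of the 5 CTL libraries. In edgeR's quasi-likelihood test 85 of them (59.4%) fell in cKO cells at an adjusted *P* under 0.05, and 0 (0%) rose. An unadjusted *P* under 0.05 was reached by 87, counting both directions. The entry rule asks for T-ending reads in CTL but not in cKO libraries. It therefore favours falls over rises in these counts, in the median and in ranks among the 143. The fitted log2 odds ratio of miR-7a-5p was 1.12 (standard error 0.60), against a median of −2.84 over the 143. It was 1 of 5 above 0 and had the highest value of all with the 9 libraries, and miR-7a-5p was not among the miRNAs called. Without cKO replicate 4, the library in which miR-7a-5p had its lowest share, its log2 odds ratio was 1.85 (standard error 0.54). In that fit miR-7a-5p was called higher, the 1 miRNA that was, while 68 were called lower. No other alternative called it, and leaving out its lowest library raises its value by design, so the call carries no weight. This too is a description, since the T ending chose the miRNA.

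The library labelled CTL replicate 2 stood apart across the 143 miRNAs, with a median T-ending share of 1.19% against 5.88 to 7.37% in the other CTL libraries and 0.189 to 0.248% in the cKO libraries. For miR-7a-5p its share of 94.0% was the lowest of the CTL libraries, next to 94.6% in CTL replicate 4, and without it the CTL mean was 95.8% ± 1.04 (SD, n = 4). cKO replicate 4, the library in which miR-7a-5p had its lowest share, had a median over miRNAs of 0.189%, beside 0.196 to 0.248% in the other cKO libraries. Without it the cKO mean of miR-7a-5p was 98.8% ± 0.530 (SD, n = 3).

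**Figure D2:**
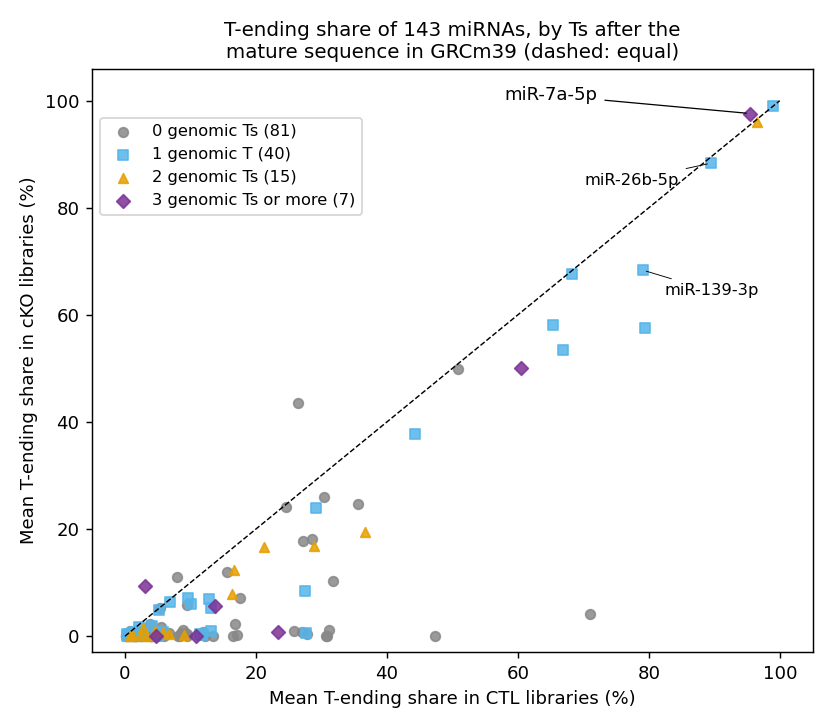
Mean T-ending share (%) in CTL libraries (x axis) and in cKO libraries (y axis) for the 143 miRNAs, coloured by the number of Ts that follow the mature sequence in GRCm39, the highest over loci. miR-7a-5p, at 95.4 and 97.6%, sits in the upper right corner with a small group close to the dashed line of equality, while most miRNAs lie below it.

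miR-7a-5p shared its near-complete T ending with few miRNAs. A T-ending share of at least 50% in all 9 libraries was found for 7 of the 143 miRNAs, and one of at least 90% for 3, namely miR-7a-5p, miR-92a-3p and miR-3963. By mean share miR-7a-5p ranked 3 of 143 in CTL and 2 of 143 in cKO libraries. Likeness was measured as the mean absolute difference in T-ending share over the 9 libraries. The closest was miR-92a-3p at 1.67 percentage points, with 96.5% ± 0.951 in CTL and 96.0% ± 0.481 in cKO libraries. miR-3963 followed at 2.62 points and miR-26b-5p at 7.42 points. miR-26b-5p had shares of 89.5% ± 2.42 and 88.3% ± 2.07, and the neighbours miR-7a-5p and miR-26b-5p did not overlap in any library of CTL or cKO cells. The next were farther away, miR-139-3p at 22.1 points and miR-34a-5p, on 3 to 70 reads per library, at 27.4 points. Each of these 5 has a T directly after the mature sequence at 1 or more loci, as miR-7a-5p does at both of its loci, and none of the 5 was called in the fit of the odds.

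Many miRNAs with a following T in the genome had a far lower share than miR-7a-5p. Of the 143 miRNAs, 81 have no genomic T right after the mature end, 40 have 1, 15 have 2 and 7 have 3 or more. The median CTL share was 5.09% in the 81 without a following T, 5.48% with 1, 6.67% with 2 and 13.7% with 3 or more. The corresponding cKO medians were 0.252, 0.801, 0.873 and 5.57%. The T-ending odds fell past the threshold in cKO cells for 55 of the 81, 17 of the 40, 9 of the 15 and 4 of the 7. Over all 143 miRNAs it was 85 (59.4%). miR-7a-5p belongs to the class with 3 or more and was not among those called.

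Reads of miR-7a-5p with a second T were few and were seen mainly in CTL libraries. Reads with 2 or 3 Ts numbered 7, 0, 4, 9 and 9 in CTL replicates 1 to 5, of 518, 695, 758, 807 and 1042 T-ending reads. In the cKO libraries there were 0, 1, 1 and 1 for replicates 1 to 4, of 168, 544, 604 and 668. As a share of T-ending reads this was 1.35, 0, 0.528, 1.12 and 0.864% in CTL and 0, 0.184, 0.166 and 0.150% in cKO libraries. The means were 0.772% ± 0.529 (SD, n = 5) and 0.125% ± 0.0843 (SD, n = 4). The 4 CTL libraries with such reads were above every cKO library, but CTL replicate 2 had none, so the groups overlapped. Taking 3 reads as the limit that a count of 0 allows, its share could be up to 0.432%, and that of cKO replicate 1 up to 1.79%. The exact 95% counting intervals reach higher, to 0.529 and 2.17%. Without CTL replicate 2 the CTL mean was 0.965% ± 0.353 (SD, n = 4).

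Pooled over libraries, 29 of 3820 T-ending CTL reads (exact 95% counting interval 0.509 to 1.09%) and 3 of 1984 cKO reads (0.0312 to 0.441%) had a second T. These pooled intervals treat reads as independent and leave out the spread between libraries, so they do not compare the genotypes. By library the groups overlapped. The difference in pooled counts lay in the 25-nt form, with 27 reads in CTL and 1 in cKO libraries. The 26-nt form had 2 reads in each genotype, from CTL replicates 3 and 4 and cKO replicates 2 and 3. The third T therefore made up 0.0512% ± 0.0701 of T-ending reads in CTL and 0.0873% ± 0.101 in cKO libraries, on 1 read in each library where it was seen. A difference in the third T was not detectable at this depth. As with the first T, these shares are part of what the miRNA was picked with and are described without a test.

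**Figure D3:**
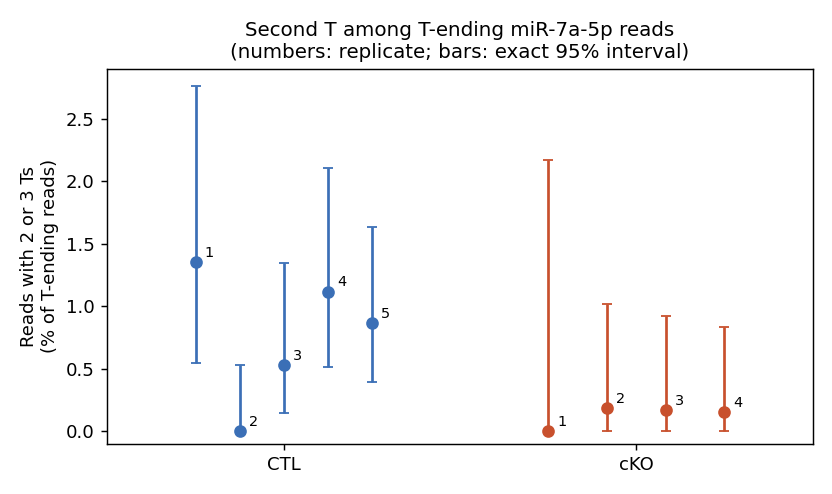
Reads with 2 or 3 Ts as a percentage of T-ending miR-7a-5p reads in each library, numbered by replicate, with exact 95% counting intervals. CTL replicates 1, 3, 4 and 5 lie between 0.528 and 1.35%, and the cKO libraries lie at or below 0.184%, as does CTL replicate 2, at 0.

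The second-T share of miR-7a-5p was set beside that of other miRNAs with many T-ending reads. Among the 27 miRNAs with at least 100 T-ending reads in each genotype, the pooled second-T share had a median of 2.66% in CTL and 0.410% in cKO libraries, and it was lower in cKO for 21 of the 27. At 0.759% in CTL libraries, miR-7a-5p was above 3 of the others, and at 0.151% in cKO libraries it was above 8. miR-92a-3p, the miRNA most like it in T-ending share, had 2.67% and 0.199%.

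The abundance of miR-7a-5p was lower in every cKO library than in any CTL library. TMM-normalized CPM, read counts brought to one library size with edgeR's TMM factors, were 2398, 2784, 2341, 2976 and 4044 in CTL replicates 1 to 5 and 1154, 1502, 1397 and 1788 in cKO replicates 1 to 4. The means were 2909 ± 688 (SD, n = 5) and 1460 ± 263 (SD, n = 4). On raw counts these levels rested on 537, 739, 796, 853 and 1076 reads in CTL and 169, 553, 612 and 711 reads in cKO libraries. By read count miR-7a-5p ranked from 38 to 47 among the miRNAs of a CTL library and from 51 to 63 in a cKO library.

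In the edgeR fit over the 205 miRNAs that reached 10 reads in 4 or more libraries, the log2 fold change of miR-7a-5p was −0.99 (standard error 0.29), which is 1.99-fold lower in cKO cells. The median over the 205 was −0.01, and 13 miRNAs had a lower value than miR-7a-5p. Every cKO library was below every CTL library for 7 of the 205 (3.41%), miR-7a-5p included, and above it for another 7 (3.41%). edgeR's quasi-likelihood test called 1 of the 205 (0.488%), which was lower, at an adjusted *P* under 0.05, and 31 had an unadjusted *P* under 0.05. The 1 called was not miR-7a-5p. DESeq2, the tool of the study, called 11 (5.37%), of which 5 were lower (2.44%), and miR-7a-5p was among them. Since abundance is also among the values the miRNA was picked with, these calls are given as a description. In bulk libraries, fewer cells with the miRNA and fewer copies per cell cannot be told apart.

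Both classes of read were lower in the cKO libraries. T-ending reads of miR-7a-5p stood at 2314, 2618, 2229, 2816 and 3916 CPM in CTL and 1147, 1478, 1379 and 1680 CPM in cKO libraries. Their log2 fold change of −0.97 (standard error 0.38) was close to that of all reads, of which they are nearly the whole. Reads without a T ending stood at 84.9, 166, 112, 160 and 128 CPM in CTL and 6.83, 24.5, 18.3 and 108 CPM in cKO libraries, a log2 fold change of −1.64 (standard error 0.61). Here cKO replicate 4 fell among the CTL libraries. The count of T-ending miR-7a-5p reads was thus lower in cKO cells, while their share of its reads was not lower in 3 of the 4 cKO libraries.

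**Figure D4:**
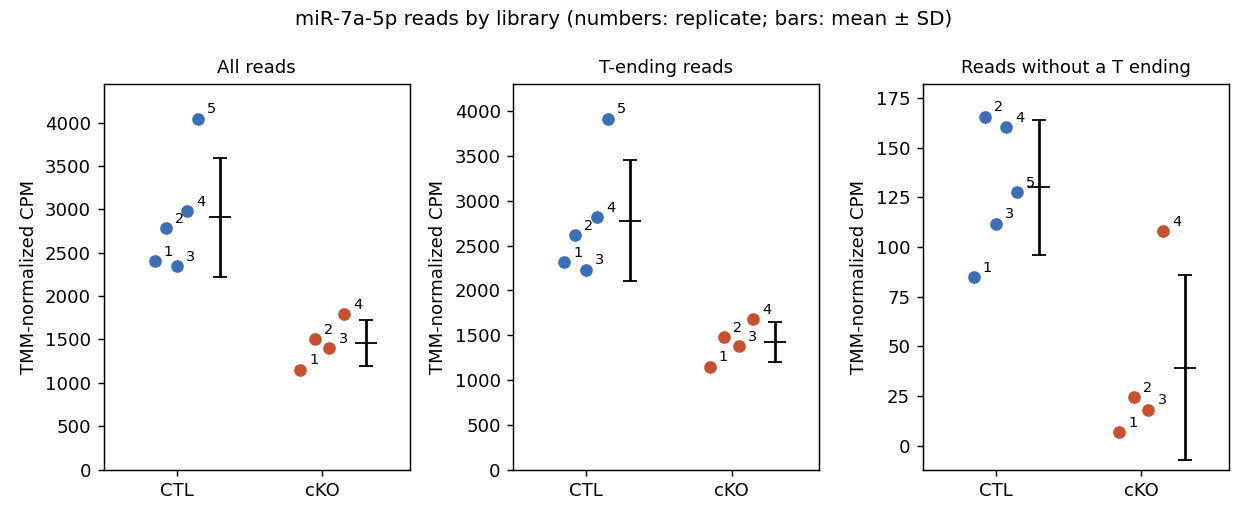
TMM-normalized CPM of miR-7a-5p in each library, for all reads, T-ending reads and reads without a T ending, with replicate numbers and mean ± SD bars for 5 CTL and 4 cKO libraries. All reads range from 2341 to 4044 in CTL and from 1154 to 1788 in cKO libraries. Among the reads without a T ending, cKO replicate 4 lies among the CTL libraries.

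T-ending reads of miR-7a-5p were a small part of all T-ending miRNA reads, 1.35 to 2.65% in CTL and 0.497 to 2.46% in cKO libraries. Leaving miR-7a-5p out moved the T-ending share of a whole library little, from a mean of 16.9 to 16.7% in CTL and from 12.3 to 12.1% in cKO libraries.

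The 5′ start, which played no part in the choice of the miRNA, was nearly fixed. Of 4001 CTL reads 2 began at a later base, and of 2045 cKO reads 1 did. All 3 were the same sequence, gaagactagtgattttgttgtT, which starts at base 3 and ends with 1 T, found once each in CTL replicates 2 and 4 and cKO replicate 2. The share was 0.0505% ± 0.0695 (SD, n = 5) in CTL and 0.0452% ± 0.0904 (SD, n = 4) in cKO libraries (exact permutation test on both sides, *P* = 1). Without ties, the smallest *P* that this test allows for 5 against 4 libraries is 0.00794. Most libraries tied here at a share of 0, so the test could not reach that value. On 3 reads it could detect little. Since all other reads began at base 1, the seed was intact in all but 3 of the 6046 reads. Reads that begin before base 1 cannot map to the reference and are not measured.

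The other miRNAs of the family were almost unread. miR-7b-5p, which has the same seed, had 0, 0, 2, 0 and 1 reads in CTL and 0, 0, 0 and 2 in cKO libraries. All 5 of these ended 1 T past base 23 and so equal the full 24-nt RefSeq sequence. miR-7a-1-3p, the opposite arm of the *Mir7-1* hairpin, had 1, 2, 6, 1 and 2 reads in CTL and 0, 2, 2 and 4 in cKO libraries. miR-7a-2-3p, the opposite arm of *Mir7-2*, had 1 read in CTL replicate 2 and 1 in cKO replicate 2. Neither opposite arm had a T-ending read, although a single T follows each of them in the genome. The opposite arms are the reads that tell the 2 loci apart, and 20 of these 22 reads came from *Mir7-1*. miR-7b-3p was not among the 817 miRNAs listed. None of the family members other than miR-7a-5p reached the minimum of reads for the abundance test, and with no such minimum edgeR called none of the 3 that were read, with 0 at an unadjusted *P* under 0.05 and adjusted *P* values of 0.730 to 0.999. DESeq2 without the minimum called none either and gave no adjusted *P* for miR-7a-2-3p.

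Markers of tissues in which miR-7 is abundant were close to 0. The neuronal miR-9-5p and the islet miR-375-3p had at most 2 reads in any library, and miR-124-3p, also neuronal, was not among the miRNAs listed. Myeloid miR-223-3p was present at 6874 ± 3547 CPM in CTL and 4015 ± 3753 CPM in cKO libraries. miR-142a-3p stood at 99.7 ± 33.2 CPM in CTL and 91.1 ± 60.0 CPM in cKO libraries, the latter on 12 to 55 reads per library. miR-142a-5p had at most 5 reads in any library. Hepatocyte miR-122-5p was read at 938 ± 323 and 996 ± 387 CPM, in cells that came from fetal liver, and its part in the levels above was not tested. Erythroid miR-451a had at most 2 reads and muscle miR-1a-3p at most 2 in any library, and lymphoid miR-150-5p was at 38.3 ± 25.3 and 153 ± 112 CPM. Erythroid miR-144-3p and muscle miR-133a-3p were not among the miRNAs listed. None of the 4 marker miRNAs that entered the abundance test was called, where edgeR called 1 of all 205 miRNAs tested (0.488%). With so few calls, this does not show that the markers were equal between genotypes.

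The miRNAs whose abundance was most like that of miR-7a-5p over the 9 libraries, by Pearson's r of log2 CPM, were miR-185-3p (*r* = 0.88), miR-704 (*r* = 0.86) and miR-674-5p (*r* = 0.85). These coefficients share libraries, size factors and the difference between genotypes, and are a description of 9 points. miR-185-3p stood at 134 ± 22.9 CPM in CTL and 72.3 ± 8.01 CPM in cKO libraries. miR-704 stood at 98.8 ± 38.1 and 16.4 ± 3.89 CPM, and it was the miRNA called lower (adjusted *P* = 0.0194, edgeR's test), on 3 to 40 reads per library. That call was lost without CTL replicate 3 and without any 1 of the cKO libraries. miR-674-5p, at 138 ± 47.9 and 78.8 ± 33.9 CPM, was not called. All 3 were far less abundant than miR-7a-5p.

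In its account of uridylation the study names miR-7, miR-148 and miR-27a-3p as examples of miRNAs with reported links to lipid metabolism. The values of the others are given here beside those of miR-7a-5p without a test of the difference. miR-148b-3p was T-ending in 1943 of 7399 CTL reads, and its T-ending odds fell by 5.14 on the log2 scale in edgeR's test (adjusted *P* = 7.92e-05), with a standard error of 0.79. miR-27a-3p had 13 T-ending of 8680 CTL reads and also fell past the threshold, whereas miR-148a-3p, with 38 of 25362, did not (adjusted *P* = 0.0868, edgeR's test). None of the 3 was called in abundance, where edgeR called 1 of all 205 miRNAs tested (0.488%). Their log2 fold changes ranged from −0.03 to 0.41.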

How the data were processed

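sRNA-seq libraries of *Meis1/Hoxa9* cells, 5 CTL and 4 cKO, were compared. The authors size-selected RNA, trimmed reads with cutadapt 5.0 and mapped them with Bowtie 1.3.1, allowing no mismatch, to miRBase mature sequences to which 3 Ts had been appended. The deposited values are unnormalized counts, 1 table by miRNA and 1 file of read sequences for each library. A 3′ extension other than T, or a start before base 1, therefore goes unmeasured. Read ends were taken from the positions in these files, and the files' own mark of uridylation differed from them in 0 cases. All columns were matched to libraries by name.

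edgeR 4.0.16 in R 4.3.3 was run on the whole table with genotype as the only term for abundance, and for T-ending odds on paired T-ending and other counts, blocking on library, with the genotype difference in their ratio as the term tested. Both were tested on simulated data. *P* values were Benjamini-Hochberg adjusted with 0.05 as the threshold. DESeq2 1.42.0, other size factors, no minimum of reads, 200 reads as the minimum, a replicate block and omission of each library were alternatives. Standard errors are the log2 fold change over the root of *F*. Mature sequences were placed in GRCm39 (GENCODE M39). The miRNA, the lists and the rule for other miRNAs named (the family, the 5 most alike in T-ending share, the 3 most alike in abundance, lipid and tissue marker miRNAs) were chosen with earlier results of these data known. SciPy 1.17.1 gave exact intervals, and permutations were enumerated.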

Additional observations from a re-analysis of the deposited data

Results flagged for a closer look

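The share of miR-7a-5p reads with a later 5′ start was 0.181% in cKO replicate 2 and 0 in the other cKO libraries, which set that library apart from the rest of its group by Dixon's ratio. It rests on 1 read of 553. With the rest of the group at 0, any single read gives the highest ratio possible, so the ratio says nothing beyond that read. No other value of miR-7a-5p tested in this way, by genotype, had a library beyond the critical ratio. Some cKO libraries came close to it, at 0.829. cKO replicate 4 reached 0.826 for the CPM of reads without a T ending and 0.810 for the T-ending share. cKO replicate 1 reached 0.814 for the second-T share.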

How the results depend on the processing

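The log2 fold change of miR-7a-5p abundance stayed below 0 in all 13 alternatives, from −1.19 to −0.90, and DESeq2 was the single one of them that called it. Without 1 library at a time, the cKO minus CTL difference of its T-ending share ranged from 1.57 to 3.39 percentage points, its T-ending log2 odds ratio from 0.81 to 1.85, the difference for reads with 2 or 3 Ts from −0.840 to −0.502 and that for reads with 3 Ts from 0.00402 to 0.0653 points. Leaving out cKO replicate 4 gave 3.39 points and 1.85, and leaving out cKO replicate 2 gave 0.00402. The difference in 5′ starts (−0.00530 points) ranged from −0.0505 to 0.0159 without 1 library. It turned to 0.0159 without CTL replicate 2, to 0.0114 without CTL replicate 4 and to 0.00977 without cKO replicate 1, 3 or 4, on 3 reads in all. The other alternatives kept the direction of each of these values.

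Of all miRNAs tested for abundance, 1 was called, against 11 with DESeq2, 18 of 817 without a minimum of reads, 0 with a replicate block, and 0 to 2 without 1 library (2 without CTL replicate 2, and 0 without CTL replicate 3 or any 1 cKO library). T-ending calls numbered 85, against 48 of 73 miRNAs with a minimum of 200 reads and 61 to 100 without 1 library. All of these were lower in cKO cells except 1 of the 69 without cKO replicate 4, which was miR-7a-5p. Replicate numbers did not pair the libraries: deviations of same-numbered libraries correlated at −0.108, −0.200, 0.432 and 0.0795, and number 3 alone matched its own best. With the replicate block, on the 8 libraries other than CTL replicate 5, the log2 values of miR-7a-5p were −0.97 for abundance and 1.33 for T-ending odds, and 73 miRNAs fell in T-ending odds. The family members other than miR-7a-5p entered the test only without a minimum of reads. Depth limits reads with 2 or 3 Ts and the later 5′ starts, which rest on 0 to 9 reads per library.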
